A study of Mus musculus with 19 samples.

Results

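The comparison described here is that of spleen type 1 conventional dendritic cells (DC1) from Batf3-/- mice with spleen DC1 from wild-type (WT) mice, both carrying Irf8VENUS, a fluorescent reporter of the gene Irf8. Its members were the 3 arrays titled Batf3-/- Irf8VENUS+ and the 3 titled WT Irf8VENUS+, which are 6 of the 19 arrays of the series. All 6 came from female mice on a C57Bl/6j background. In each group replicates 1 and 2 were sorted as CD24+XCR1+ and replicate 3 as CD24+, and the sample codes of both replicates 3 also belong to a series of their own, so sort gate and sample series cannot be told apart. The spleen set held 2 further arrays, of WT Irf8VENUS- DC1 sorted as CD24+XCR1+, which shared in the estimate of the spread. The remaining 11 arrays, of another array type, held Irf8VENUS+ DC1 from skin-draining lymph nodes (SDLN), 3 Batf3-/- and 3 WT resident and 3 Batf3-/- and 2 WT migratory. The labels give neither the ages of the mice nor the construct behind the reporter, nor whether replicate arrays stand for separate mice, so the p-values measure the spread between these arrays, which may be technical.

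DC1 take up dying cells and present their antigens to CD8 T cells, and they carry the chemokine receptor XCR1. Their development depends on IRF8, an interferon regulatory factor, and on BATF3, a basic leucine zipper factor that pairs with JUN proteins and binds DNA beside IRF8 at composite sites. BATF3 is known to sustain Irf8 transcription as DC1 precursors commit, and mice without Batf3 are known to have few DC1. The cells on the Batf3-/- arrays are those that the sort recovered from such mice. Fewer cells of a type and less RNA per cell cannot be told apart in such bulk samples.

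Values are log2 intensities, listed for replicates 1, 2 and 3 in that order, and fold changes are log2 differences, Batf3-/- minus WT, from a limma fit with the sort gate as a term, given with their standard error (SE). A gene was called when its Benjamini-Hochberg adjusted p over all 12875 genes tested was under 0.05. A gene is said to have risen or fallen in Batf3-/- DC1 only where it was called. Array medians lay between 5.01 and 5.03 in Batf3-/- DC1 and between 5.00 and 5.08 in WT DC1. The mean correlation of an array with the others of its group was 0.952 to 0.958 in Batf3-/- DC1 and 0.930 to 0.946 in WT DC1, with the lowest value for WT replicate 1.

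The deleted gene was low on every array labelled Batf3-/-. Batf3 read 6.35, 5.29 and 7.08 in Batf3-/- DC1, against 9.64, 9.73 and 10.41 in WT DC1. No Batf3-/- array came near the WT range, although replicate 3 of the Batf3-/- group was the highest of its group and replicate 2 the lowest. The log2 fold change was -3.69 ± 0.28, adjusted p = 0.00193, a 12.9-fold difference. The array represents Batf3 by 1 probe set, and whether its probes lie within the deleted part of the gene was not tested. Around Batf3 on chromosome 1, none of the 74 nearest tested genes, 50 before it and 24 after it, was called, and their median log2 fold change was -0.0038. At an unadjusted p under 0.05 were 5 of them, and the lowest p was that of Atf3, described next. Over all genes tested 0.738% were called and 10.4% had an unadjusted p under 0.05. With 74 genes at such shares, the absence of a call is no result about the neighbours.

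Irf8, the factor that BATF3 works with, was among the brightest genes on every array. It read 12.08, 12.03 and 12.36 in Batf3-/- DC1, against 12.35, 12.21 and 12.43 in WT DC1, and the groups overlapped (-0.17 ± 0.08, adjusted p = 0.537). The 2 WT Irf8VENUS- arrays, at 11.46 and 11.37, lay below all 6 Irf8VENUS+ arrays. As all 6 are titled by this reporter of Irf8, the part of the reporter, or of selecting on it, in these Irf8 values was not tested. None of the 9 genes tested of the IRF family was called. Irf4, which like Irf8 pairs with BATF factors, read 5.87, 5.73 and 6.27 in Batf3-/- DC1, against 4.71, 5.12 and 5.36 in WT DC1, so its groups did not overlap, but it missed the threshold (0.89 ± 0.21, adjusted p = 0.144). Of 19 BATF and AP-1 factor genes tested, Batf3 alone was called. Batf, a relative that is known to be able to take the place of Batf3, read 5.90, 6.39 and 6.80 in Batf3-/- DC1, against 6.60, 5.30 and 6.80 in WT DC1, with overlapping groups and a log2 fold change of 0.13 ± 0.35. Atf3, a stress-inducible AP-1 factor, is a neighbour of Batf3 on chromosome 1 and had the largest positive difference of this list, at 1.85 ± 0.35, adjusted p = 0.0656. It read 10.82, 11.04 and 10.92 in Batf3-/- DC1, against 8.15, 9.46 and 9.63 in WT DC1, with no overlap, and 10.21 and 10.81 on the Irf8VENUS- arrays.

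**Figure D1:**
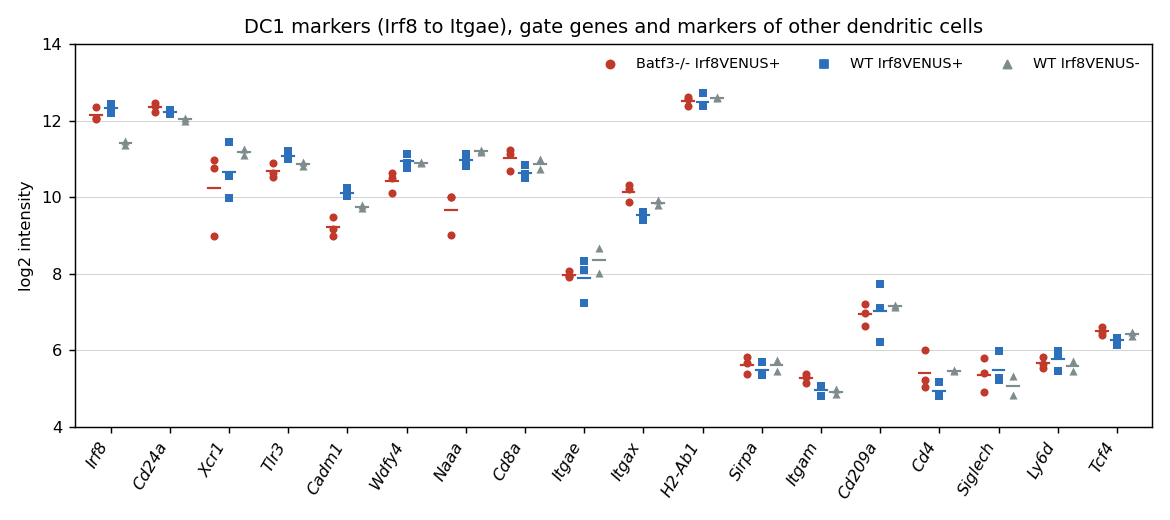
Log2 intensity of marker genes on each spleen array (vertical axis), with red circles for Batf3-/- Irf8VENUS+, blue squares for WT Irf8VENUS+ and grey triangles for WT Irf8VENUS- arrays, and short lines for group means. Irf8, Cd24a and the class II gene H2-Ab1 were bright on every array, Cadm1 and Naaa lay lower on all 3 Batf3-/- arrays than on the WT Irf8VENUS+ arrays, and Sirpa, Itgam, Siglech and Ly6d were near the table median of 5.04 throughout.

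The sorted cells carried DC1 markers in both genotypes. Xcr1 read 10.98, 10.77 and 8.99 in Batf3-/- DC1, against 9.98, 11.43 and 10.56 in WT DC1, with overlapping groups (-0.41 ± 0.43, adjusted p = 0.803). Its low value on Batf3-/- replicate 3 came from an array sorted on CD24 alone, and the Batf3-/- minus WT difference was 0.17 among the arrays whose sort selected on XCR1 and -1.57 between the pair whose sort did not. Tlr3, a sensor of double-stranded RNA in DC1, read 10.88, 10.52 and 10.64 in Batf3-/- DC1, against 11.03, 11.21 and 11.01 in WT DC1. Every Batf3-/- array was below every WT array, but the difference of -0.41 ± 0.13 missed the threshold (adjusted p = 0.28). Wdfy4, which is needed for cross-presentation, showed the same arrangement without passing the test (-0.51 ± 0.15, adjusted p = 0.231), whereas Cd8a (0.38 ± 0.15) and the CD103 gene Itgae (0.08 ± 0.30) had overlapping groups. None of the 9 sort gate genes tested was called. The closest was Itgax, which encodes CD11c, at 10.31, 10.22 and 9.88 in Batf3-/- DC1, against 9.61, 9.58 and 9.40 in WT DC1 (0.61 ± 0.12, adjusted p = 0.0856).

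The protocol label lists CD172a+ for spleen, although DC1 are known to lack that protein. Sirpa, its gene, read 5.39, 5.84 and 5.66 in Batf3-/- DC1, against 5.69, 5.42 and 5.35 in WT DC1, near the table median of 5.04 and with overlapping groups. The other cDC2 markers Itgam and Cd4 and the pDC markers Siglech and Ly6d were also low, with no value above 6.01 on the 6 arrays. Cd209a was intermediate, at 7.22, 6.99 and 6.63 in Batf3-/- DC1, against 7.74, 7.10 and 6.23 in WT DC1. Clec9a is not among the genes named on this array and was not analysed here.

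**Figure D2:**
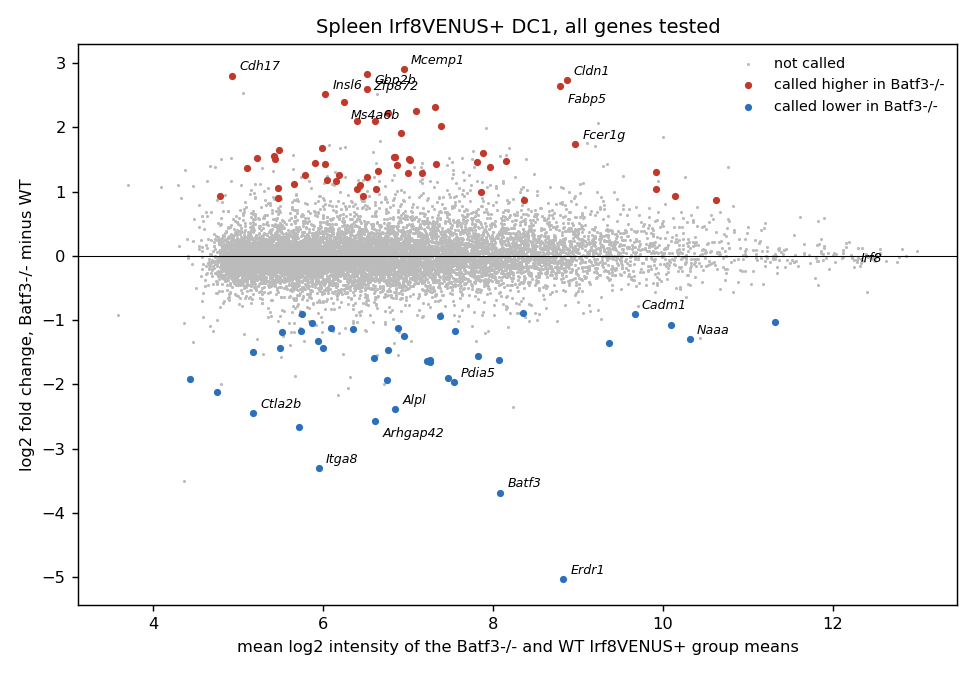
Log2 fold change, Batf3-/- minus WT (vertical axis), against the mean log2 intensity of both groups (horizontal axis) for the 12875 genes tested in spleen, with called genes in red (higher in Batf3-/- DC1) or blue (lower). Called genes spread over the range of intensities, Erdr1 and Batf3 lie lowest, and Irf8 lies on the zero line at the bright end.

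Across all genes, 95 of 12875 (0.738%) were called, 56 (0.435%) higher and 39 (0.303%) lower in Batf3-/- DC1. Their median absolute log2 fold change was 1.458 and the smallest 0.872, beside a median of -0.02 over all genes tested. Of the called genes, 14 were higher and 8 lower by a log2 difference of 2 or more, and the 3 past 3 (Erdr1, Batf3 and Itga8) were all lower. The Batf3-/- and WT arrays did not overlap for 94 of the 95, the exception being Snx22, beside 12.7% of all genes tested. Without adjustment, 1343 genes (10.4%) had a p under 0.05. Of all genes tested, 6101 had a positive fold change and 6774 a negative one. The count of called genes depended on single arrays. Leaving out WT replicate 1 gave 149, WT replicate 2 gave 58 and WT replicate 3 gave 24. Leaving out a Batf3-/- array gave 40, 28 and 25 for replicates 1, 2 and 3, and leaving out either Irf8VENUS- array gave 47. On the CD24+XCR1+ arrays alone the count was 25. Why the counts changed was not tested.

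Of the 95 genes, 17 were called under every alternative setting in which they were tested, 20 in all, or 19 for Cdh17, Ms4a4c and Cybb, which a stricter filter on dim genes left untested. They were Batf3, Erdr1, Itga8, Arhgap42, Alpl, Pdia5, Gm3336 and 1810020O05Rik among those that fell, and Mcemp1, Cdh17, Gbp2b, Ms4a6b, Gfra2, Gm1966, Mreg, Ms4a4c and Cybb among those that rose. A further 41 lost their call under 1 to 9 alternatives and 37 under 10 or more. No called gene changed direction under an alternative.

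**Figure D3:**
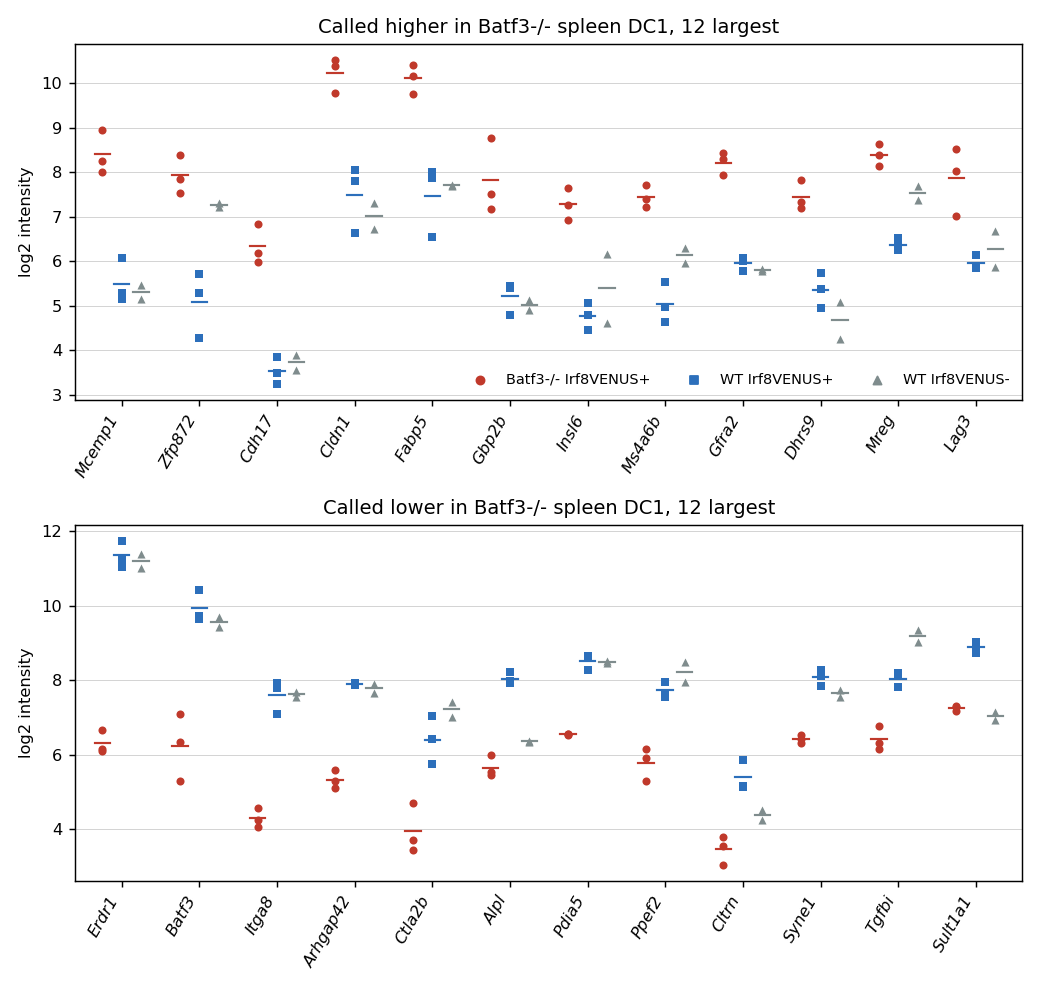
Log2 intensity on each spleen array (vertical axis) of the 12 named genes with the largest rises (upper panel) and falls (lower panel), with red circles for Batf3-/- Irf8VENUS+, blue squares for WT Irf8VENUS+, grey triangles for WT Irf8VENUS- and short lines for group means. In each of the 24 genes the 3 Batf3-/- arrays lie apart from the 3 WT Irf8VENUS+ arrays, and for Zfp872 and Alpl the Irf8VENUS- arrays lie nearer to Batf3-/-.

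Some of the genes that fell stood on the list of cDC1 identity genes, although the DC1 markers Xcr1, Irf8, Cd24a, Tlr3 and Wdfy4 were not called. Among the 45 genes tested that mark cDC1 identity, 9 fell and 0 rose, with a median log2 fold change of -0.35 beside -0.02 over all genes, and 31 of the 45 lay below 0. The 9 include Batf3 itself. Over all 12875 genes tested 0.303% fell, 0.435% rose and 6774 lay below 0. The list was assembled with results of these data known and is no independent evidence of a direction. Without WT replicate 1 the number that fell was 14, and on the CD24+XCR1+ arrays alone it was 3. Itga8, an integrin alpha chain, read 4.57, 4.07 and 4.25 in Batf3-/- DC1, against 7.92, 7.08 and 7.79 in WT DC1. It was bright on every WT array, dim on every Batf3-/- array, and fell by 9.86-fold (-3.30 ± 0.24, adjusted p = 0.00193). Pdia5, a disulfide isomerase of the endoplasmic reticulum, was tightly reproduced, at 6.54, 6.57 and 6.56 in Batf3-/- DC1, against 8.26, 8.65 and 8.65 in WT DC1 (-1.97 ± 0.16, adjusted p = 0.00347). Of 26 genes of endoplasmic reticulum folding and the unfolded protein response it was the one called, and the list had a median of -0.03.

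Naaa, a lysosomal amidase that hydrolyses N-acylethanolamines, read 10, 10 and 9.01 in Batf3-/- DC1, against 10.93, 11.14 and 10.82 in WT DC1. Replicate 3, sorted on CD24 alone, was the lowest by about 1 log2 unit, and all Batf3-/- arrays were below all WT arrays (-1.29 ± 0.17, adjusted p = 0.0192). Cadm1, an adhesion molecule by which DC1 are recognised across species, fell less, with 9.49, 9.17 and 8.98 in Batf3-/- DC1, against 10.23, 10.09 and 10.03 in WT DC1 (-0.90 ± 0.14, adjusted p = 0.0381). Its call and that of Naaa were lost under 13 and 10 of the 20 alternatives. Ppef2, a protein phosphatase with EF hands, fell to 6.16, 5.92 and 5.29 in Batf3-/- DC1, against 7.96, 7.67 and 7.55 in WT DC1 (-1.94 ± 0.21, adjusted p = 0.00859). Gpr141b, a member of an orphan G protein-coupled receptor group, was among the brightest genes that fell, at 10.93, 10.99 and 10.47 in Batf3-/- DC1, against 11.53, 12.04 and 11.91 in WT DC1 (-1.03 ± 0.17, adjusted p = 0.0455).

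Snx22, a sorting nexin, was the one called gene whose groups overlapped, at 6.64, 6.55 and 5.75 in Batf3-/- DC1, against 7.94, 7.74 and 6.63 in WT DC1. Within each gate the Batf3-/- arrays were nonetheless lower, with a difference of -1.24 among the CD24+XCR1+ arrays and -0.88 between the CD24+ pair, and both replicates 3 were dimmer than the rest of their groups. Sult1a1, a sulfotransferase, read 7.30, 7.29 and 7.19 in Batf3-/- DC1, against 8.90, 8.73 and 9.03 in WT DC1, and the Irf8VENUS- arrays, at 7.15 and 6.92, lay below even the Batf3-/- arrays. Against the WT Irf8VENUS+ arrays it fell by 3.09-fold (-1.63 ± 0.16, adjusted p = 0.00618). Gcsam and Fcrla, a pair of genes known from germinal centre B cells and also on the DC1 list, differed by -2.35 ± 0.45 and -2.16 ± 0.37 without passing (adjusted p = 0.07 and 0.0529). Gcsam read 8.19, 7.70 and 5.28 in Batf3-/- DC1, against 9.55, 9.45 and 9.23 in WT DC1, so Batf3-/- replicate 3 stood more than 2 log2 units under the other Batf3-/- arrays.

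The largest fall was outside the DC1 list. Erdr1, named for its effect on erythroid differentiation and placed on chromosome X by RefSeq, read 6.09, 6.67 and 6.17 in Batf3-/- DC1, against 11.73, 11.05 and 11.26 in WT DC1. This was a 32.8-fold difference (-5.03 ± 0.23, adjusted p = 0.000293), with no overlap and with the Irf8VENUS- arrays at 11.02 and 11.38. A second, dimmer probe set of Erdr1 differed by -1.54. Arhgap42 was nearly constant within groups, at 5.11, 5.28 and 5.60 in Batf3-/- DC1, against 7.88, 7.92 and 7.88 in WT DC1 (-2.57 ± 0.16, adjusted p = 0.00112).

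Alpl, the tissue-nonspecific alkaline phosphatase, read 6.00, 5.53 and 5.45 in Batf3-/- DC1, against 7.92, 8.21 and 7.98 in WT DC1. It fell by 5.21-fold (-2.38 ± 0.18, adjusted p = 0.00193), and the Irf8VENUS- arrays, at 6.34 and 6.38, lay nearer to the Batf3-/- than to the WT Irf8VENUS+ arrays. Its second, dimmer probe set differed by -0.64. Ctla2b, a cysteine protease inhibitor related to a protease propeptide, read 4.71, 3.71 and 3.44 in Batf3-/- DC1, against 5.75, 7.04 and 6.41 in WT DC1. WT replicate 1 was about 1 log2 unit above the highest Batf3-/- array (-2.45 ± 0.39, adjusted p = 0.0378), and the call was lost under 10 of 20 alternatives. Tgfbi, a secreted protein induced by TGF-beta, read 6.78, 6.16 and 6.30 in Batf3-/- DC1, against 7.83, 8.19 and 8.11 in WT DC1 (-1.63 ± 0.22, adjusted p = 0.0196). On the Irf8VENUS- arrays Tgfbi was brighter still, at 9.34 and 9.02.

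Further genes that fell stood in no common list. On the list of actin and cytoskeleton genes 34 were tested, with a median of 0.06. None of the 34 fell and Fscn1 rose, beside 0.303% and 0.435% of all genes tested. That list does not hold Fgd6, Sh3pxd2b, Mical2 or Dstn, named below, so its count does not cover them. Syne1, a nuclear envelope spectrin repeat protein, read 6.54, 6.32 and 6.43 in Batf3-/- DC1, against 8.12, 7.84 and 8.28 in WT DC1 (-1.65 ± 0.17, adjusted p = 0.00709), but it has 59 probe sets on this array and the second brightest differed by 0.06. Fxyd5, a regulator of the sodium pump, was bright and closely grouped, at 9.38, 9.53 and 9.76 in Batf3-/- DC1, against 10.54, 10.56 and 10.82 in WT DC1 (-1.08 ± 0.12, adjusted p = 0.00972). Ocstamp, a fusion protein known from osteoclasts, was spread among Batf3-/- arrays, with 5.84, 6.46 and 7.05 in Batf3-/- DC1, against 7.79, 8.09 and 8.34 in WT DC1 (-1.62 ± 0.21, adjusted p = 0.0192). Cltrn, a collectrin that handles amino acid transporters, read 3.81, 3.05 and 3.55 in Batf3-/- DC1, against 5.17, 5.13 and 5.87 in WT DC1, dim throughout in Batf3-/- DC1 (-1.92 ± 0.22, adjusted p = 0.0108). Nedd4, a ubiquitin ligase, fell by 2.57-fold, at 8.51, 8.96 and 8.60 in Batf3-/- DC1, against 9.90, 10.14 and 10.10 in WT DC1 (-1.36 ± 0.18, adjusted p = 0.0192). Other genes that fell include the Cdc42 exchange factor Fgd6 (-1.60), the podosome scaffold Sh3pxd2b (-1.44), the flavoprotein actin oxidase Mical2 (-1.12), the p120 catenin gene Ctnnd1 (-1.18) and the actin depolymerising factor Dstn (-0.89), all with groups that did not overlap. The zinc finger gene Tshz1 (-1.47), the calcium channel subunit Cacnb2 (-1.32) and the GABA-B receptor subunit Gabbr1 (-1.25) fell as well.

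Genes that rose included genes of mature and migrating dendritic cells. Of 46 DC maturation and migration genes tested, 4 rose, none fell and 40 had a positive fold change. Over all 12875 genes tested 0.435% rose, 0.303% fell and 6101 had a positive fold change. The list median was 0.46 beside -0.02 over all genes. This list, too, was assembled with results of these data known and is no independent evidence of a direction. Without WT replicate 1 the number that rose was 7 at a median of 0.45, and on the CD24+XCR1+ arrays alone it was 0 at a median of 0.50. The summed linear intensity of the list was 20380 to 22680 in Batf3-/- DC1, against 11690 to 14510 in WT DC1, and the WT Irf8VENUS- arrays lay between, at 17120 and 18140. Cldn1, a tight junction claudin also known from Langerhans cells and migrating dendritic cells, read 10.52, 10.39 and 9.79 in Batf3-/- DC1, against 6.64, 8.06 and 7.80 in WT DC1. The groups did not overlap and differed by 6.65-fold (2.73 ± 0.39, adjusted p = 0.0258), with WT replicate 1 the lowest of all. Fabp5, a fatty acid binding protein of the cytosol, read 9.76, 10.40 and 10.17 in Batf3-/- DC1, against 8.01, 6.55 and 7.86 in WT DC1 (2.64 ± 0.36, adjusted p = 0.0223), and the second of its 4 probe sets differed by 2.63. Fscn1, the actin bundler of dendritic cell processes, was near 6.17 in the mean of WT DC1 and higher on every Batf3-/- array, at 7.78, 7.82 and 7.13 (1.41 ± 0.19, adjusted p = 0.0192). Tmem123, a mucin-like receptor that was bright in both groups, rose by 2.46-fold (1.30 ± 0.21, adjusted p = 0.0401).

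The chemokine receptor and chemokines of that list came close to the threshold without passing it. Ccr7, which guides dendritic cells to lymph node T cell zones, read 10.45, 10.47 and 9.89 in Batf3-/- DC1, against 7.39, 8.99 and 8.24 in WT DC1, with no overlap (2.06 ± 0.39, adjusted p = 0.07). Ccl22, a ligand of CCR4, read 10.34, 10.12 and 9.50 in Batf3-/- DC1, against 7.55, 8.63 and 8.52 in WT DC1 (1.76 ± 0.33, adjusted p = 0.0639), and the related Ccl17 differed by 1.34 ± 0.27, adjusted p = 0.0856. For Ccr7 and Ccl22 WT replicate 1, the array least like its group, was the lowest of the 6. On the Irf8VENUS- arrays Ccl22 read 9.60 and 9.39, nearer to Batf3-/- DC1. The costimulatory genes Cd86 (0.12 ± 0.26), Cd80 (0.37 ± 0.16) and Cd40 (0.74 ± 0.33) had overlapping groups. Of 22 genes of NF-kB subunits and feedback 20 had a positive fold change, beside 6101 of all 12875 tested. None of the 22 was called and their median was 0.37. Their summed intensity was 6927 to 7523 in Batf3-/- DC1, against 3696 to 6014 in WT DC1 and 6548 to 7065 on the Irf8VENUS- arrays, so the last lay nearer to Batf3-/-. Of 27 genes of tissue dissociation stress, 22 had a positive fold change, again beside 6101 of 12875. The list median was 0.23, and Klf4, which is also on the list of cDC2 genes, was the one called. The part of dissociation stress in the rise of the maturation genes was not tested.

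**Figure D4:**
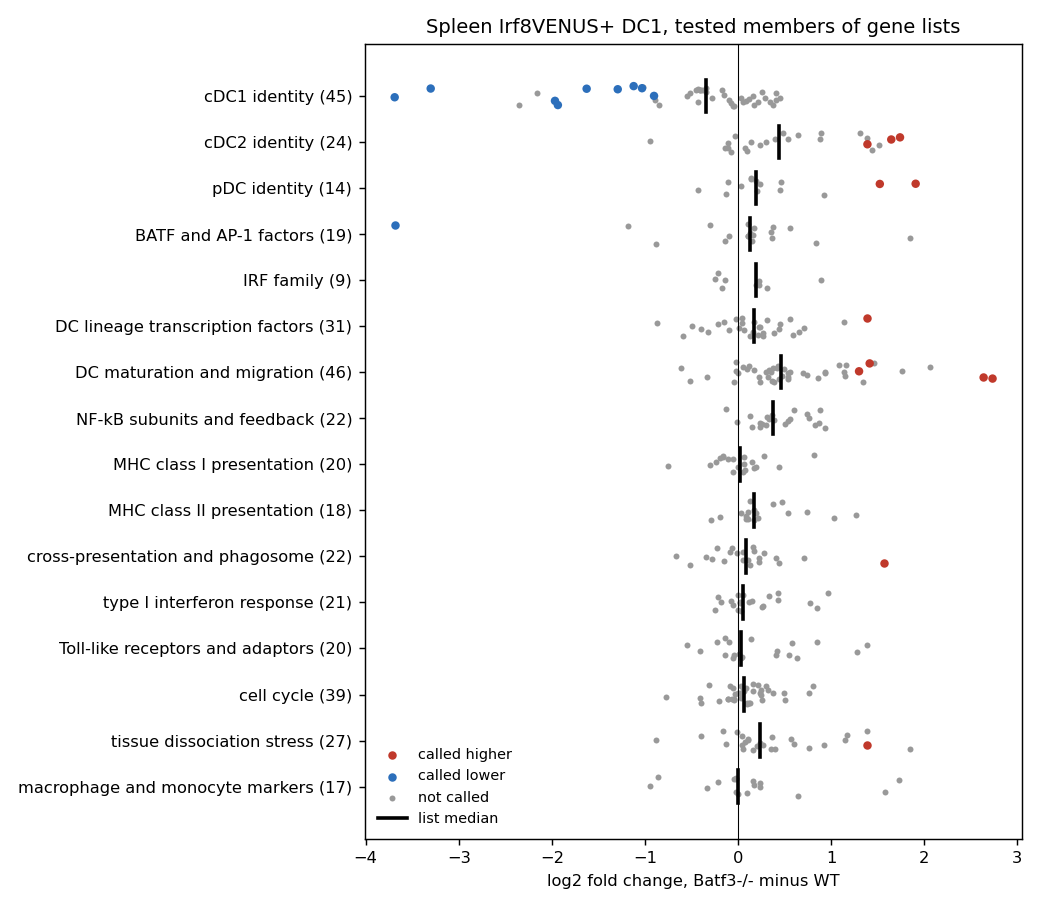
Log2 fold change in spleen, Batf3-/- minus WT (horizontal axis), of each tested gene in 16 lists (rows, number tested in brackets), with called genes in red or blue, other genes in grey and a black bar at the list median. The 9 called cDC1 identity genes all lie below 0 and the called cDC2, pDC and maturation genes all above it, while the lists of MHC presentation, interferon response, Toll-like receptors and cell cycle hold no called gene.

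Some genes that are common in cDC2 and other myeloid cells rose in Batf3-/- DC1. Of 34 cDC2 identity genes on the array 24 were tested, the others being too dim. Of the 24, 3 rose and none fell, beside 0.435% and 0.303% of all genes tested. Above 0 lay 18 and below it 6, at a median of 0.44. Lyz2, also on this list, differed by -0.94 (adjusted p = 0.0834), and at most 1 member was called lower under an alternative. The number that rose was 5 without WT replicate 1 and 2 on the CD24+XCR1+ arrays alone, at medians of 0.44 and 0.24. Fcer1g, the signalling chain of activating Fc receptors, read 9.39, 9.83 and 10.30 in Batf3-/- DC1, against 7.70, 7.79 and 8.81 in WT DC1. It was higher by 3.34-fold (1.74 ± 0.18, adjusted p = 0.00764), with replicate 3 the highest array in both groups. Klf4, a zinc finger factor needed by a subset of cDC2, was nearly equal on the 3 Batf3-/- arrays, at 8.67, 8.63 and 8.69 in Batf3-/- DC1, against 6.97, 7.08 and 7.77 in WT DC1 (1.39 ± 0.22, adjusted p = 0.0378), and its call was lost under 11 alternatives. Ms4a4c, a tetraspanning membrane protein of the Ms4a family, rose to 6.20, 6.15 and 6.56 in Batf3-/- DC1, against 4.40, 4.65 and 4.91 in WT DC1 (1.65 ± 0.14, adjusted p = 0.00378).

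A second Ms4a gene, Ms4a6b, read 7.39, 7.72 and 7.21 in Batf3-/- DC1, against 4.63, 4.98 and 5.54 in WT DC1 (2.39 ± 0.25, adjusted p = 0.00764). Of 6 Ms4a genes tested these 2 rose, beside 0.435% of all genes tested. The 6 had a median of 1.05, and 5 had a positive fold change, beside 6101 of all 12875 tested. Members of this family are similar in sequence, as are those of the guanylate-binding, Ctla2 and NK lectin families, and the array values do not show how far probes of relatives share signal. Cybb, the catalytic subunit of the phagocyte NADPH oxidase, was dim in WT and rose by 2.95-fold, at 6.20, 5.90 and 6.51 in Batf3-/- DC1, against 4.67, 4.59 and 4.67 in WT DC1 (1.56 ± 0.15, adjusted p = 0.00555). Of 22 genes of cross-presentation and the phagosome it was the one called. Fgr, a Src family kinase of myeloid cells, was closely grouped, at 7.75, 7.74 and 7.38 in Batf3-/- DC1, against 6.07, 5.95 and 6.22 in WT DC1 (1.54 ± 0.17, adjusted p = 0.00942). Cd300lf, an inhibitory receptor for lipids, read 7.05, 6.61 and 6.54 in Batf3-/- DC1, against 5.38, 5.46 and 5.08 in WT DC1 (1.42 ± 0.16, adjusted p = 0.00972), and Nlrc4, an inflammasome protein that responds to bacterial flagellin, rose by 2.85-fold (1.51 ± 0.24, adjusted p = 0.0378).

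Mcemp1, a membrane protein known from mast cells and other myeloid cells, had the largest rise. It read 8.00, 8.25 and 8.96 in Batf3-/- DC1, against 5.28, 5.16 and 6.07 in WT DC1, with the lowest Batf3-/- array far above the highest WT array and the same difference in both gates (2.91 and 2.89). The 7.47-fold difference (2.90 ± 0.15, adjusted p = 0.000423) was called under every alternative. Of 13 genes tested that were listed with the myeloid C-type lectins, Mcemp1 and Clec4g (0.94) rose, beside 0.435% of all genes tested. The list median was -0.08.

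No listed marker of a cell type other than dendritic cells passed the test, beside 0.738% of all genes tested. At such a share, the absence of a call is no result about other cells. For macrophages and monocytes, none of 17 markers tested was called, the median was 0.00079, and the summed linear intensity of the list was 4517 to 6231 in Batf3-/- DC1 and 3636 to 7554 in WT DC1. Fcgr1, Mertk and Cd163, also on this list, stayed below the filter level in both groups, whereas Cd68 and Lyz2 were bright in both. Cd68 read 10, 10.03 and 10.2 in Batf3-/- DC1, against 9.893, 9.926 and 10.56 in WT DC1. For Lyz2 the values were 8.965, 8.982 and 9.667 in Batf3-/- DC1, against 9.565, 10.25 and 10.63 in WT DC1. Of the 17, 3 lay higher on every Batf3-/- array than on every WT array, which were Spic, Timd4 and Ccr2, and 0 lay lower, beside 6.15% and 6.56% of all genes tested. Spic, a factor of red pulp macrophages, read 5.80, 6.45 and 7.06 in Batf3-/- DC1, against 4.81, 4.64 and 5.13 in WT DC1, without passing (1.57 ± 0.34, adjusted p = 0.102), and 7.78 and 6.45 on the Irf8VENUS- arrays. Timd4, a phosphatidylserine receptor of resident macrophages, differed by 1.73 ± 0.36 (adjusted p = 0.0889), and Ccr2, the chemokine receptor of monocytes, by 0.65 ± 0.21 (adjusted p = 0.313). Lyz2, which had the lowest p of the list, had overlapping groups (-0.94 ± 0.19, adjusted p = 0.0834). Summed intensities, over the markers tested, were 352.7 to 422.8 in Batf3-/- DC1 and 330.7 to 380.4 in WT DC1 for 8 T cell markers. For 5 NK cell markers the sums were 486.3 to 614.0 in Batf3-/- DC1 and 442.7 to 673.7 in WT DC1. They were 1101 to 1452 in Batf3-/- DC1 and 1077 to 1334 in WT DC1 for 6 B cell markers. For 4 neutrophil and mast cell markers they were 108.8 to 160.2 in Batf3-/- DC1 and 99.6 to 147.7 in WT DC1. Listed markers below the filter are not in these sums. The part of other cells in the genes that rose was not tested.

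Guanylate-binding proteins and immunity-related GTPases are induced by interferons and attack intracellular pathogens. Of them Gbp2b rose by 6.05-fold, at 7.51, 7.18 and 8.77 in Batf3-/- DC1, against 5.46, 4.80 and 5.41 in WT DC1 (2.60 ± 0.28, adjusted p = 0.00835), with replicate 3 the highest Batf3-/- array. Of 11 genes of these families tested it was the one called, 10 had a positive fold change, and the median was 0.68. Over all 12875 genes tested 0.435% rose and 6101 had a positive fold change. Gbp5 differed by 1.19 ± 0.24, adjusted p = 0.0848, with 6.87, 7.36 and 6.95 in Batf3-/- DC1, against 5.49, 6.32 and 5.80 in WT DC1 and no overlap. None of 21 type I interferon response genes was called, at a median of 0.05.

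Other surface molecules that rose are known from lymphocytes, epithelia or neurons. Cdh17, a cadherin of intestine and B cells, was dim in WT DC1 and rose by 7-fold, at 6.83, 5.98 and 6.19 in Batf3-/- DC1, against 3.49, 3.25 and 3.84 in WT DC1 (2.81 ± 0.25, adjusted p = 0.0039). Of 29 cadherins, claudins and junction molecules tested, Cdh17 and Cldn1 rose and Cadm1 fell, beside 0.435% and 0.303% of all genes tested. Gfra2, the neurturin receptor, read 8.30, 8.43 and 7.93 in Batf3-/- DC1, against 6.08, 5.79 and 6.01 in WT DC1 (2.26 ± 0.17, adjusted p = 0.00193), and no array of one group came within 1 log2 unit of the other. Lag3, an inhibitory receptor that binds class II molecules, read 8.53, 8.04 and 7.03 in Batf3-/- DC1, against 5.89, 6.13 and 5.85 in WT DC1, with Batf3-/- replicate 3 lowest in its group (1.91 ± 0.30, adjusted p = 0.0378). The Lag3 difference was 2.27 in the CD24+XCR1+ arrays and 1.18 in the CD24+ pair, and its call was lost under 13 alternatives. Havcr1, a phosphatidylserine receptor also known as TIM-1, was dim in WT DC1 and rose to 6.14, 5.86 and 5.96 in Batf3-/- DC1, against 4.80, 4.09 and 4.50 in WT DC1 (1.52 ± 0.19, adjusted p = 0.0174). Of 14 pDC identity genes tested, Lag3 and Havcr1 were the 2 that rose, beside 0.435% of all genes tested. Siglech, also on that list, read 5.41, 4.91 and 5.80 in Batf3-/- DC1, against 5.97, 5.24 and 5.29 in WT DC1 with overlapping groups (-0.13 ± 0.29).

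NK-complex lectin-like receptors had a median of 0.51 over 12 genes tested, of which 2 rose, beside 0.435% of all genes tested. Klri1, a receptor chain that pairs with KLRE1, read 8.78, 9.04 and 8.86 in Batf3-/- DC1, against 7.47, 7.14 and 7.64 in WT DC1 (1.48 ± 0.19, adjusted p = 0.0192). Clec2i, a ligand of such receptors, read 7.81, 8.44 and 7.89 in Batf3-/- DC1, against 6.43, 6.40 and 7.01 in WT DC1, and the Irf8VENUS- arrays, both at 7.37, lay between the groups (1.43 ± 0.23, adjusted p = 0.0423). The NK cell marker Klre1 itself read 5.77, 4.93 and 5.35 in Batf3-/- DC1, against 4.73, 5.36 and 4.81 in WT DC1, with overlapping groups.

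Further genes that rose stood mostly outside the lists. Of 33 genes of fatty acid binding and lipid handling tested, Fabp5 was the one called, 11 had a positive fold change and the median was -0.05. Over all 12875 genes tested 0.738% were called and 6101 had a positive fold change. Mreg, a regulator of lysosome-related organelles, read 8.40, 8.64 and 8.15 in Batf3-/- DC1, against 6.25, 6.53 and 6.34 in WT DC1 (2.02 ± 0.18, adjusted p = 0.00378). Dhrs9, a retinol dehydrogenase, read 7.19, 7.34 and 7.82 in Batf3-/- DC1, against 4.94, 5.38 and 5.75 in WT DC1 (2.09 ± 0.23, adjusted p = 0.00937), and Chka, the choline kinase that begins phosphatidylcholine synthesis, rose by 3.04-fold (1.60 ± 0.24, adjusted p = 0.0317). Both had groups that did not overlap. The second probe set of Chka, however, differed by 0.17. Stat4, which relays interleukin 12 signals, read 6.12, 5.72 and 6.16 in Batf3-/- DC1, against 4.70, 5.11 and 5.02 in WT DC1 (1.06 ± 0.16, adjusted p = 0.0371), and was the one called of 17 SOCS and JAK-STAT genes. Insl6, a relaxin-like peptide, rose by 5.71-fold (2.51 ± 0.38, adjusted p = 0.0336), although the Irf8VENUS- arrays were far apart at 4.61 and 6.17. Zfp872, a zinc finger gene, rose by 7.15-fold, at 7.86, 7.54 and 8.39 in Batf3-/- DC1, against 5.71, 4.28 and 5.29 in WT DC1 (2.84 ± 0.33, adjusted p = 0.0116), and the Irf8VENUS- arrays, at 7.22 and 7.32, lay near the Batf3-/- arrays. Further genes that rose were the glycosyltransferase Galnt3 (1.69), the integrin-linked adaptor Parvb (1.54), the orphan receptor Gpr82 (1.49), the RNA editing enzyme Apobec1 (1.45), the semaphorin receptor Nrp1 (1.16), the ETS factor Etv5 (1.18) and the drug efflux pump Abcb1a (1.24).

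Of 44 lists of pathways and families, 22 held no called gene. As 0.738% of all genes tested were called, the absence of a call in a list of such size is no result about its pathway. Of the called genes, 65 of the 95 stood in no list. None of 20 MHC class I genes (median 0.02) or 18 MHC class II genes (0.17) was called. The class II gene H2-Ab1 read 12.61, 12.57 and 12.38 in Batf3-/- DC1, against 12.38, 12.71 and 12.37 in WT DC1, a difference of 0.03 ± 0.09. Lists without a call also included 227 solute carriers (0.01), 78 genes of oxidative phosphorylation (-0.03), 50 cytosolic ribosomal proteins (-0.06), 42 proteasome subunits (-0.02), 28 lysosomal genes (0.25) and 15 glycolytic genes (0.08). Of 20 Toll-like receptor and adaptor genes, Tlr1 had the lowest p, reading 8.35, 8.04 and 8.12 in Batf3-/- DC1, against 6.71, 7.24 and 6.72 in WT DC1 with no overlap but without passing (1.28 ± 0.28, adjusted p = 0.109).

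The WT Irf8VENUS- arrays took part in choosing the called genes only through the choice of probe set, the filter and the spread. On them most called genes lay with the WT Irf8VENUS+ arrays. For 72 of the 95 called genes both Irf8VENUS- arrays lay nearer to the WT Irf8VENUS+ mean than to the Batf3-/- mean, for 11 the 2 arrays divided, and for 12 both lay nearer to Batf3-/-. Those 12 were Alpl, Sult1a1, Khdrbs3, Erc1 and 1810020O05Rik among the genes that fell, and Zfp872, Clec2i, Etv5, Epsti1, Tank, Adcy6 and Phf11b among those that rose. Epsti1, an interferon-responsive gene, read 10.54, 10.63 and 10.15 in Batf3-/- DC1, against 9.38, 9.46 and 9.36 in WT DC1, and 10.40 and 10.21 on the Irf8VENUS- arrays. The same positions were not counted over all genes tested, and Batf3-/- DC1 were not tested against the Irf8VENUS- arrays.

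The lymph node arrays, which share no sample with the spleen arrays, were fitted on their own. In resident SDLN DC1, 220 of 11931 genes (1.84%) were called between Batf3-/- and WT, 101 (0.847%) higher and 119 (0.997%) lower. Of the 95 genes called in spleen 87 were tested there, and 86 of these (98.9%) had the same sign, beside 61.4% of the 10035 genes tested in both tables. Of the 87, 52 were called the same way and none the opposite way, which is 59.8% of the spleen genes and 24.9% of the 209 resident genes tested in spleen. By direction, 27 of 52 genes that rose in spleen were called higher (median log2 fold change 0.92), and 25 of 35 that fell were called lower (-1.05). Leaving out single resident arrays gave 32 to 47 shared calls, with 32 and 33 without WT replicates 2 and 3, and the 21 genes called and tested when the spleen fit held only the CD24+XCR1+ arrays gave 15.

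**Figure D5:**
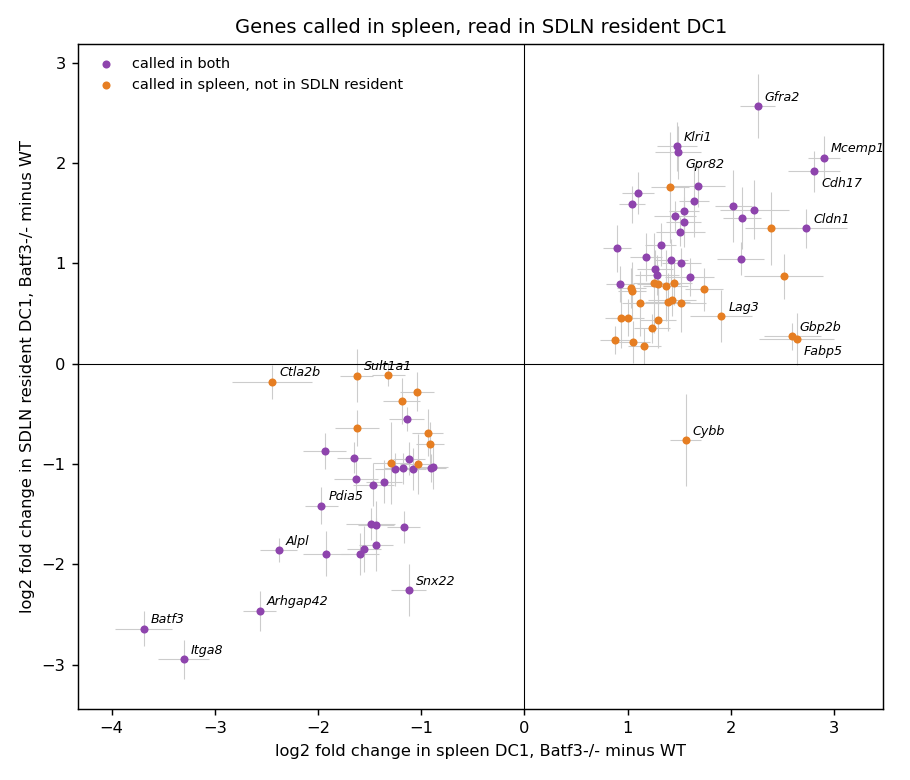
Log2 fold change, Batf3-/- minus WT, in resident SDLN DC1 (vertical axis) against spleen DC1 (horizontal axis) for the 87 genes called in spleen and tested in both, with bars of 1 SE, purple for genes called in both and orange for genes called in spleen alone. Batf3, Itga8 and Arhgap42 lie at the lower left and Mcemp1, Gfra2 and Cdh17 at the upper right, Fabp5, Gbp2b, Ctla2b and Sult1a1 lie near 0 in resident DC1, and Cybb is the gene with opposite signs.

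Among the shared genes, Itga8 differed by -2.95 ± 0.19 in resident DC1, Arhgap42 by -2.46 ± 0.20 and Alpl by -1.86 ± 0.12. Gfra2 differed by 2.57 ± 0.32, Mcemp1 by 2.06 ± 0.22, Klri1 by 2.17 ± 0.24 and Cdh17 by 1.92 ± 0.20. Snx22, whose groups overlapped in spleen, differed by -2.26 ± 0.26 there. Several of the largest spleen changes were small in resident DC1 and not called, among them Fabp5 (0.25 ± 0.26), Gbp2b (0.27 ± 0.13), Ctla2b (-0.18 ± 0.17), Sult1a1 (-0.12 ± 0.26) and Cacnb2 (-0.11 ± 0.11). Cybb was the gene with the opposite sign (-0.76 ± 0.46). Whether the effects differ between spleen and node was not tested, as the tables come from different array types. Read the other way, 203 of the 209 resident genes tested in spleen (97.1%) had the same sign there. The 94 called higher in resident DC1 had a spleen median of 1.04, and the 115 called lower a spleen median of -0.79. Xcr1, whose sort in spleen selected on the protein in 4 of the 6 arrays, fell in resident DC1 by 1.38 ± 0.21.

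In migratory SDLN DC1, 1123 of 11931 genes (9.41%) were called, 851 (7.13%) higher and 272 (2.28%) lower. The count was 37 with the spread of values within each array as a term. That spread, as a standard deviation, was 2.07 to 2.16 on migratory Batf3-/- arrays and 1.96 to 2.03 on migratory WT arrays. Spread and genotype therefore cannot be told apart there. Of the 87 genes called in spleen, 67 (77.0%) had the same sign in migratory DC1, beside 54.2% of genes tested in both tables. Of them 18 were called the same way and none the opposite way, which is 20.7% of the spleen genes and 1.86% of the 970 migratory genes tested in spleen. Leaving out single migratory arrays gave 4 to 27 shared calls, 4 of them without WT replicate 1, 8 and 9 without Batf3-/- replicates 1 and 2 and 27 without Batf3-/- replicate 3. The value was 1 with the spread as a term. With the code that titles of same-numbered lymph node arrays share as a replicate block, 2464 genes were called in migratory DC1 and 29 of the spleen genes were shared. Called the same way in spleen, resident and migratory DC1 were 11 genes, Batf3, Cadm1 and Fxyd5 among those that fell and Mcemp1, Cldn1, Gfra2, Klri1, Fgr, Chka, Rras2 and Bmp2k among those that rose.

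Promoters were searched for a pattern based on letters that AP-1 factors are known to bind, with its middle base left free (N). The window ran from 250 bases before to 50 after each gene's start in RefSeq (GRCm38.p6) and was found for 33 of the 39 genes that fell, 46 of the 56 that rose and 10057 of the 12875 tested. On either strand TGANTCA was present in 2 windows of genes that fell (6.06%), 7 of genes that rose (15.2%) and 668 of all tested (6.64%). GAAANNGAAA, a spacing bound by interferon regulatory factors, was present in 3 (9.09%), 5 (10.9%) and 365 (3.63%), and may overlap other motifs. The composite letters GAAATGANTCA and TTTCNNNNTGANTCA were present in no window of a called gene and in 10 (0.099%) and 9 (0.089%) of all tested. A match is a description of letters and not a bound site, and distal enhancers lie outside these windows.

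Stretches around TGANTCA, in capitals, are shown for both genes that fell with a match and for 2 that rose, to set the letters beside the values given above. They run 5′ to 3′ on the gene's strand, at chr13:60897564-60897670 (- strand) for Ctla2b, chr9:72693066-72693172 (+ strand) for Nedd4, chr8:3665685-3665791 (+ strand) for Mcemp1 and chr3:142594776-142594876 (+ strand) for Gbp2b, and relative to the gene's start the motif begins at -143 (Ctla2b), -152 (Nedd4), 4 (Mcemp1) and 10 (Gbp2b).
Ctla2b: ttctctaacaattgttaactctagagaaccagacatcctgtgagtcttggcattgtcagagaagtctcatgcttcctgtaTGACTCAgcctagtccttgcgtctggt
Nedd4: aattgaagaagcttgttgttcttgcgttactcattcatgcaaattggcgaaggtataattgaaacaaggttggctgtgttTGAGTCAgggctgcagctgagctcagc
Mcemp1: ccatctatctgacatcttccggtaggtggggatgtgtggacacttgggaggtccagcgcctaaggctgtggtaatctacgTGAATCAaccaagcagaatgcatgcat
Gbp2b: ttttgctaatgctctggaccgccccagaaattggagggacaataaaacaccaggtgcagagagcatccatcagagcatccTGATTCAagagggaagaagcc
The 4 stretches were chosen for holding the motif, so that they share its fixed letters is no result. The free middle base differed, being C in Ctla2b, G in Nedd4, A in Mcemp1 and T in Gbp2b. In Batf3-/- DC1 relative to WT DC1 the genes shown changed by -2.45 (Ctla2b), -1.36 (Nedd4), 2.90 (Mcemp1) and 2.60 (Gbp2b) on the log2 scale.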

How the data were processed

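RNA of sorted DC1 was measured on Affymetrix arrays. The deposited spleen values are intensities on a linear scale (1.85 to 13035.5) and the deposited lymph node values are on a log2 scale (1.35 to 13.96). RMA, named in the submitters' processing notes without a version, made the values: it subtracts background, equalises distributions between arrays and combines probes into probe sets. Log2 was taken of the spleen intensities. Of 41345 spleen probe sets 23521 had 1 gene symbol, 1814 several and 16010 none in the platform annotation, and 23328 were updated through RefSeq (GRCm38.p6). Each of 22180 genes was represented by its brightest probe set, and genes entered the test if 2 or more arrays lay at or above the table median of 5.04, leaving 12875 genes (11931 of 19938 at 4.82 in lymph node). Probe sets of more than 1 symbol were dropped.

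Genes were tested in R 4.3.3 with limma 3.58.1 (linear model, contrast and moderated variance with an intensity trend) within each table, with all its arrays, and in spleen with the sort gate as a term. Benjamini-Hochberg adjustment ran over all genes tested, at a threshold of 0.05. The script was tested on simulated data. The tables give no background per probe, and precision is limited by the number of arrays. Alternatives changed the filter, normalization, centring, gate term, replicate block, array spread, array weights, trend, probe set rule and arrays included.

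The members and the gene lists were chosen with earlier results of these data known. Genes were named by rule: Batf3, Irf8 and gate genes, the 25 largest called changes in each direction (without Gm, Rik, Mir and Snor symbols and receptor segments), and per list either at most 4 called members or the member with the lowest p. Called genes among 50 neighbours on each side of Batf3 were to be named. Promoter stretches were of called genes with the motif, up to 4 that fell and 2 that rose. Other genes named were chosen after their values were seen. Replicate numbers are shared between the groups. Lymph node titles also give arrays of the same number a common code, in both genotypes, and what it marks is not stated, so it was a block in an alternative. Spleen labels hold no such code.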

Additional observations from a re-analysis of the deposited data

Results flagged for a closer look

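H2-Aa, a class II gene of the sort gate, moved in opposite directions in the sort gates. In arrays sorted on CD24 and XCR1 it read 12.07 and 12.08 in Batf3-/- DC1, against 11.38 and 12.02 in WT DC1, a mean difference of 0.37. In the pair sorted on CD24 alone it read 11.64 in Batf3-/- DC1 and 11.82 in WT DC1, a difference of -0.18. The difference between the gates was not tested, and the gene was not called.

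For 5 called genes the Batf3-/- and WT arrays did not overlap in spleen, and in migratory lymph node DC1 they did not overlap the opposite way. None of the 5 was called in migratory DC1. Groups of 3 and 2 arrays can part by order alone. The share of all genes with such a pattern was not counted, so the number is no result about these genes. Cybb, the NADPH oxidase subunit that rose in spleen, read 5.82, 6.49 and 5.88 in migratory Batf3-/- DC1, against 7.15 and 8.37 in WT, a log2 difference of -1.70. Ms4a4c read 4.90, 5.67 and 5.10 in migratory Batf3-/- DC1, against 6.34 and 6.27 in WT (-1.08), and Fcer1g 9.70, 9.67 and 9.54, against 10.15 and 9.81 in WT (-0.34). Tgfbi, which fell in spleen, read 5.63, 5.93 and 5.67 in migratory Batf3-/- DC1, against 5.32 and 5.55 in WT (0.31). Alpl read 4.94, 4.75 and 4.77, against 4.75 and 4.71 in WT (0.0899), near the lymph node table median of 4.82 and almost touching. These differences between spleen and node were not tested, as the tables come from different array types. Groups of 3 arrays or fewer were not searched for arrays far from the rest.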

How the results depend on the processing

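Every alternative changed 1 choice. For the 95 called genes 1876 values were recomputed, of which 1207 kept the call, 669 lost it in the same direction and 0 reversed. In spleen the count of 95 became 46 with only the groups compared, 155 when a term for each array's spread was added, 25 with only arrays sorted on CD24 and XCR1 and 262 with array weights, and 24 to 149 when single arrays were left out. Blocking on replicate number instead of gate gave 67, 60 of them among the 95. Deviations of the same-numbered Batf3-/- and WT spleen arrays correlated at -0.066, 0.267 and 0.349, and those of differently numbered arrays at -0.427 to 0.264. The labels state no pairing, so the main fit did not pair spleen arrays. Whether the numbers mark something the arrays share was not tested. In resident DC1 the count of 220 became 342 with only the groups compared, 429 with the spread as a term, 280 with the title code as a replicate block and 95 to 177 when single arrays were left out. In migratory DC1 the count of 1123 became 2104 when dim genes were kept (965 higher, 1139 lower, beside 851 and 272), 7 with only the groups compared, 37 with the spread as a term, 2464 with the replicate block and 109 to 3570 when single arrays were left out, while normalizing again gave 659 higher and 525 lower. Settings for shared calls were chosen after the data were seen. Calls shared between spleen and resident DC1 numbered 32 to 47 when single resident arrays were left out (32 and 33 without WT replicates 2 and 3), and with the spleen fit 15 on CD24+XCR1+ arrays alone and 70 without WT replicate 1, against 52. Calls shared with migratory DC1, 18, became 1 when the fit held just those groups or the spread as a term, 29 with the replicate block, 5 with CD24+XCR1+ spleen arrays alone, 26 without WT replicate 1 of spleen and 4 to 27 when single migratory arrays were left out (8 and 9 without Batf3-/- replicates 1 and 2). The cDC1 identity genes that fell numbered 3 to 14, the maturation genes that rose 0 to 9 and the cDC2 genes that rose 2 to 7 over the 20 settings. Fits with fewer arrays estimate the spread from fewer values, and the cause of the changes in count was not tested. Dim genes cannot be set apart from background.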

Other observations

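Genes called in resident lymph node DC1 but not in spleen were also read on the spleen arrays, and were chosen for their size in the resident comparison. Plce1, a phospholipase C, read 5.36, 4.21 and 4.63 in Batf3-/- DC1, against 6.13, 6.68 and 7.00 in WT DC1, with no overlap (-1.87 ± 0.32, adjusted p = 0.0529). Trpm2, a calcium channel opened by oxidative stress, read 7.93, 7.87 and 7.91 in Batf3-/- DC1, against 8.99, 9.01 and 8.55 in WT DC1, again with no overlap and without passing (-0.95 ± 0.16, adjusted p = 0.0529). The fatty acid elongase Elovl6 (-0.94 ± 0.23, adjusted p = 0.15) and the scavenger receptor Cd36 (-0.84 ± 0.20, adjusted p = 0.145) lay lower on all Batf3-/- arrays than on all WT arrays.

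Among genes called higher in resident DC1, Timd4, also on the list of macrophage markers, read 5.91, 6.44 and 8.46 in Batf3-/- DC1, against 5.03, 5.13 and 5.46 in WT DC1 in spleen. Batf3-/- replicate 3, sorted on CD24 alone, was the highest array, and the gene did not pass (1.73 ± 0.36, adjusted p = 0.0889). The tetraspanin Cd63 read 9.05, 9.27 and 9.10 in Batf3-/- DC1, against 6.87, 8.20 and 7.81 in WT DC1 (1.51 ± 0.39, adjusted p = 0.173), and the NK-complex lectin Klrb1b 5.56, 5.46 and 5.94 in Batf3-/- DC1, against 4.25, 4.56 and 5.41 in WT DC1 (0.92 ± 0.20, adjusted p = 0.104). The urokinase receptor gene Plaur, by contrast, had overlapping groups in spleen (0.95 ± 0.26, adjusted p = 0.218).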
